A study of Sus scrofa with 4 samples.

Results

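Interferon gamma, encoded by IFNG, and 5 genes that respond to it, IRF1, GBP1, GBP2, CD274 and ICAM1, were read in spleen RNA of Minnesota miniature swine. Members were all probes other than controls whose transcript accession was a pig RefSeq transcript of these 6 genes. They comprised 10 of the 43603 probes on the array, with 1 probe for IFNG, 2 for IRF1, 3 for GBP1, 2 for GBP2, 1 for CD274 and 1 for ICAM1. All 10 probes were well above background on all 4 arrays. The study hybridised spleen RNA of wildtype (WT) pigs, with 3 arrays, and of a pig labelled IL2RG +/-, with 1 array. The latter is called KO, as the study terms these pigs. IL2RG encodes the gamma chain that several interleukin receptors have in common. In KO pigs 1 copy of it was disrupted with TALENs in cultured cells, and the animals were cloned from such cells by nuclear transfer. The age of the pigs is not given in the labels, and the donor cell colony of the KO pig is not given in the sources used here. The labels number the WT replicates and name no litter or culture, so p values measure the spread between these 3 spleens and carry no spread between KO animals.

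Interferon gamma is secreted mainly by activated T cells and natural killer (NK) cells and acts on most cell types of the spleen, macrophages above all. It binds a receptor made of the chains IFNGR1 and IFNGR2, whose kinases JAK1 and JAK2 start a signal to the nucleus. There it switches on a first wave of genes, among them that of IRF1, a transcription factor that drives many later response genes. GBP1 and GBP2 are large GTPases that attack vacuoles of intracellular microbes. CD274, also called PD-L1, is a ligand that restrains T cells through the receptor PD-1, and ICAM1 is an adhesion molecule that binds leukocyte integrins. Both are also switched on by other inflammatory signals.

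The arrays lay on 2 slides, with WT 1 and KO on slide 1 and WT 2 and WT 3 on slide 2, and the slides were scanned on different dates. Between 66.1% and 72.7% of spots were well above background. IL2RG, the targeted gene, was lowest on KO on both of its probes. KO minus the WT mean was -0.77 on the brighter IL2RG probe and -2.12 on the other, and limma called neither (adjusted p = 0.578 and 0.403). Levels are given as log2 signal after subtraction of the 75th percentile of each array, which is therefore at 0, and a log2 difference of 1 is 2-fold. Levels of different probes are not compared with each other, apart from the summed signals of cell type lists, in which bright probes weigh most.

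KO was the highest of the 4 arrays on all 10 member probes, as it was on 27% of all probes tested. Among the 2742 genes that a tested probe named, with 1 probe each, the share was 38.1%. KO also stood at least 2-fold above each WT array on 10 of 10 member probes, whereas this held for 3.42% of the 33464 probes tested. KO exceeded the WT mean by between 1.35 for ICAM1 and 3.65 for IFNG. The adjusted limma p over all probes tested lay between 0.388 and 0.443, so 0 of the 10 passed the threshold, as did 0 of all probes tested (0%). With an unadjusted limma p under 0.05 and a difference of at least 2-fold, KO was higher for 10 of 10 member probes, against 4.46% of all probes tested. That count fell to 6 with the slide as a block and to 2 without WT 2. The methods' t-test gave 1 member probe without adjustment, that of ICAM1, but 0 both with the Bonferroni correction that the methods name and with Benjamini-Hochberg adjustment. An exact permutation test over 4 arrays cannot give a p below 0.25.

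The WT spleens held the same order on every member probe. Among them, WT 1 was the highest and WT 3 the lowest on all 10 member probes, an order found for 21.6% of all probes tested, and the full order of KO, WT 1, WT 2 and WT 3 occurred for 9.83% of all probes tested. WT 1 shared slide 1 with KO. Within slide 1, KO exceeded WT 1 by between 1.16 and 2.19, at least 2-fold on 10 of 10 member probes, against 7.94% of all probes tested. Slide, scan date and the individual pigs cannot be told apart among the WT spleens. In bulk spleen RNA, more cells that express a gene and more RNA per cell also cannot be told apart.

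**Figure D1:**
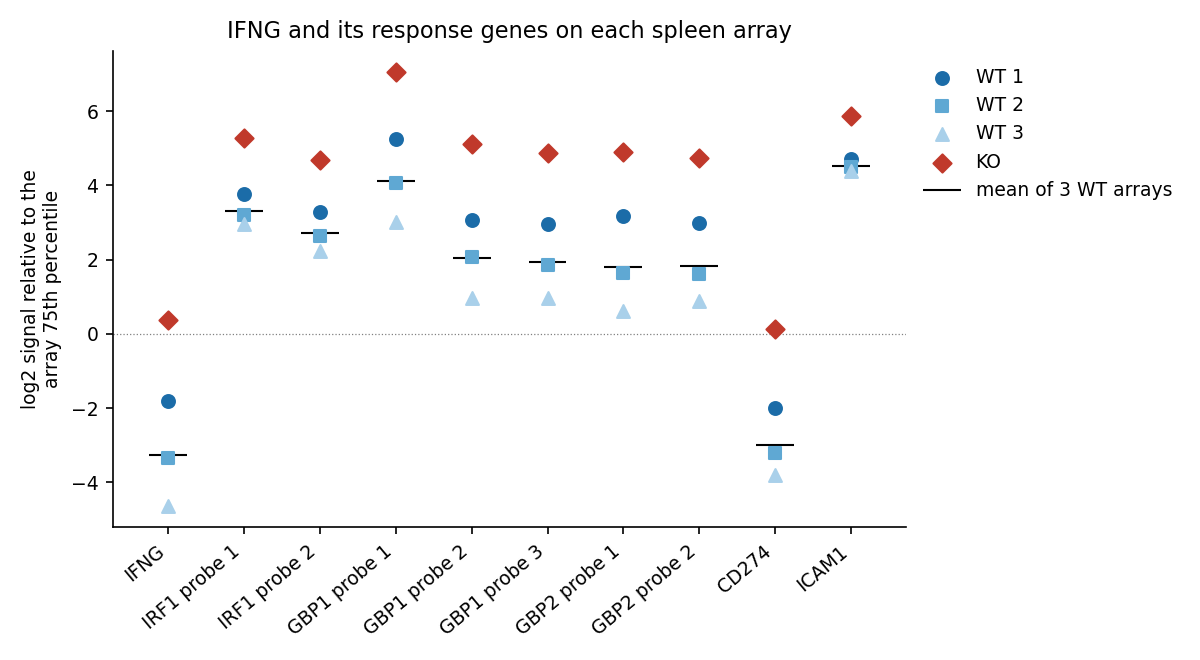
Log2 signal relative to the array 75th percentile (vertical axis) for each of the 10 member probes (horizontal axis), with 1 point per array and a bar at the mean of the 3 WT arrays. KO is the top point on every probe and WT 3 the lowest, with the widest WT spread for IFNG (SD 1.42) and the narrowest for ICAM1 (SD 0.17).

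IFNG, the ligand, had a single probe. In WT 1, WT 2 and WT 3 its level was -1.80, -3.35 and -4.63, and in KO 0.38. The processed signal was 183, 79.9, 33.0 and 842 in the same order, and spots counted as well above background started at 14.6 on WT 1 and 15.4 on WT 3, so IFNG was dim on WT 3. The WT spleens were spread widely but did not reach KO. WT averaged -3.26 ± 1.42 (SD, n = 3), and KO differed from it by 3.65 with a standard error of 1.20, or 12.5-fold (limma, adjusted p = 0.432 over all probes). KO stood 4.55-fold above WT 1. The SD of IFNG among WT spleens was exceeded by 4.86% of all probes tested, and its difference by 0.27%.

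IRF1, the transcription factor of the first response wave, was bright on both probes. Its brighter probe read 3.78, 3.21 and 2.97 in WT 1, WT 2 and WT 3, and 5.28 in KO. KO stood apart from the WT spleens, whose SD on this probe was exceeded by 39.5% of all probes tested. WT averaged 3.32 ± 0.42 (SD, n = 3), and KO lay 1.96 (standard error 0.43) or 3.90-fold above it (limma, adjusted p = 0.388). The other IRF1 probe gave a difference of 1.97 with WT at 2.72 ± 0.53 (SD, n = 3), so both probes gave nearly the same size. KO exceeded WT 1 by 1.50 and 1.40 on these probes.

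GBP1, a GTPase of the antimicrobial response, had 3 probes. The brightest read 5.24, 4.07 and 3.02 in WT 1, WT 2 and WT 3, and 7.04 in KO. KO was the highest, and the WT spleens were about evenly spaced below it. WT averaged 4.11 ± 1.11 (SD, n = 3), and KO differed by 2.93 with a standard error of 0.95, or 7.64-fold (limma, adjusted p = 0.431). The differences of the GBP1 probes lay between 2.93 and 3.09, and KO exceeded WT 1 by 1.81 to 2.05.

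GBP2, which belongs to the same GTPase family, showed a difference close in size to that of GBP1. The brighter GBP2 probe read 3.18, 1.63 and 0.62 in WT 1, WT 2 and WT 3, and 4.89 in KO. WT 1 again lay nearest to KO. WT averaged 1.81 ± 1.29 (SD, n = 3), and KO lay 3.08 (standard error 1.09) or 8.46-fold above it (limma, adjusted p = 0.443). The other GBP2 probe gave 2.90, and KO exceeded WT 1 by 1.72 and 1.73. In the assembly Sscrofa11.1 GBP1 and GBP2 are adjacent, with 0 protein-coding genes between them. Genes of this family are alike in sequence, and how far their probes share signal was not tested.

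CD274, the checkpoint ligand, was dim. It read -2.00, -3.21 and -3.80 in WT 1, WT 2 and WT 3, and 0.12 in KO. The WT spleens did not overlap KO, which had 4.33-fold the signal of WT 1. WT averaged -3.00 ± 0.92 (SD, n = 3), and KO lay 3.12 (standard error 0.80) or 8.72-fold above it (limma, adjusted p = 0.410).

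ICAM1, the adhesion molecule, showed the smallest difference of the members and the least spread among WT. Levels of 4.72, 4.49 and 4.38 in WT 1, WT 2 and WT 3 stood against 5.88 in KO. The WT spleens were hardly separated, and their order on this probe depended on scaling, since on the processed signal before scaling WT 2 was the highest of them. WT averaged 4.53 ± 0.17 (SD, n = 3), and KO lay 1.35 (standard error 0.30) or 2.55-fold above it (limma, adjusted p = 0.388). Under quantile normalisation and in the deposited series table, KO exceeded the highest WT array by 0.94 for ICAM1, short of 2-fold, while the other 9 member probes stayed at least 2-fold above every WT array.

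**Figure D2:**
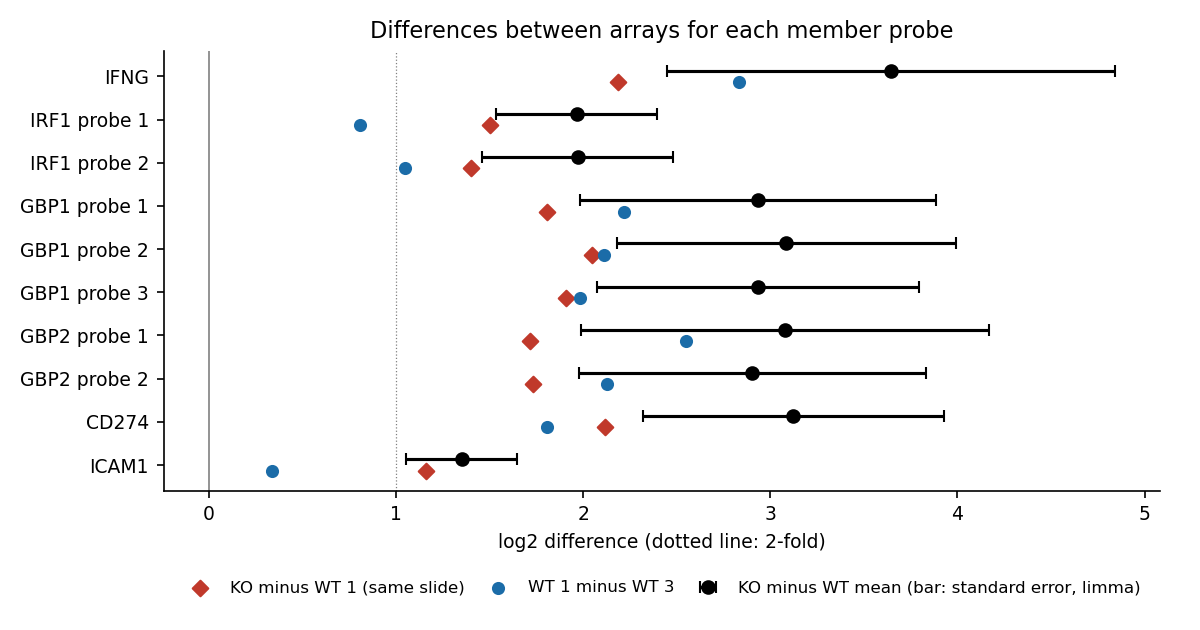
Log2 differences (horizontal axis, dotted line at 2-fold) for each member probe: KO minus the WT mean with its limma standard error, KO minus WT 1 on the same slide, and WT 1 minus WT 3. All KO differences lie to the right of 2-fold, and for IFNG, GBP1 and GBP2 the span between WT 1 and WT 3 is larger than the step from WT 1 to KO.

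The members differed in how far the WT spleens were spread. For ICAM1, IRF1 and CD274 the step from the highest WT array to KO was larger than the whole WT range, which held for 4 of the 10 member probes and for 10.2% of all probes tested. The WT range was 0.34 for ICAM1 against a step of 1.16, 0.81 for IRF1 (brighter probe) against 1.50, and 1.81 for CD274 against 2.12. For IFNG, GBP1 and GBP2 it was the other way round. IFNG spanned 2.83 among WT spleens and its step to KO was 2.19, and on the brightest probes GBP1 spanned 2.22 with a step of 1.81 and GBP2 2.55 with a step of 1.72. The difference between slides among WT, WT 1 minus the mean of WT 2 and WT 3, was 2.19 for IFNG, 2.05 for GBP2, 1.69 for GBP1, 1.51 for CD274, 0.69 for IRF1 and 0.28 for ICAM1. For IFNG it was thus as large as the difference between KO and WT 1 on 1 slide, and for GBP2 it was larger.

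**Figure D3:**
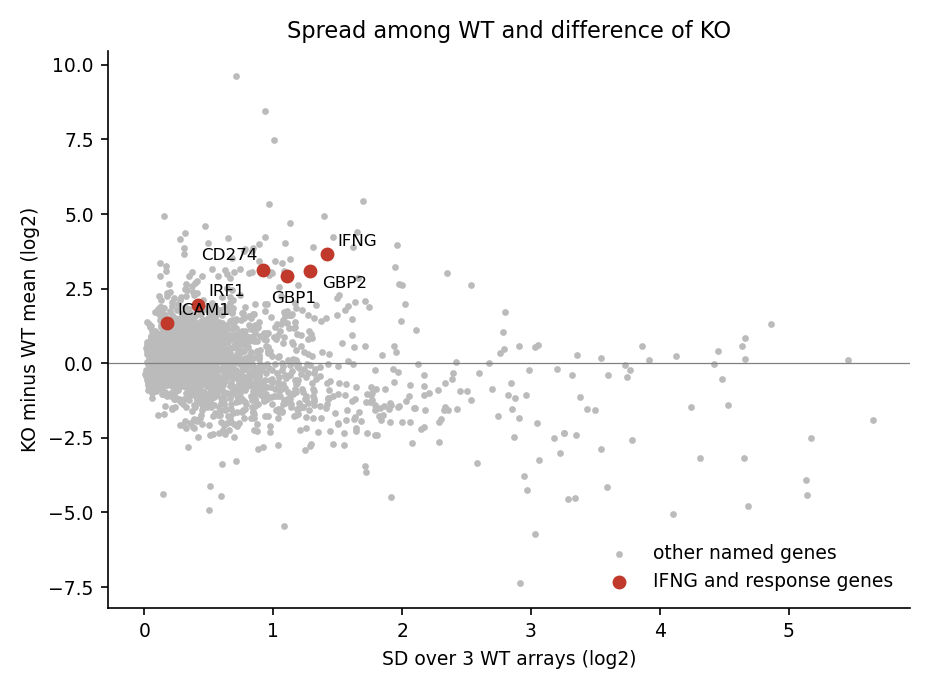
SD over the 3 WT arrays (horizontal axis, log2) against KO minus the WT mean (vertical axis, log2) for each of the 2742 named genes tested, with 1 probe per gene and the 6 members in red. The members lie in the upper part of the plot, from ICAM1 at the left (SD 0.17, difference 1.35) to IFNG at the right (SD 1.42, difference 3.65).

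The genes whose pattern over the 4 arrays was nearest to that of IFNG were then listed, as a description. For 2431 other named genes measured on all arrays, the 4 values were centred on their mean and the root mean square distance from IFNG was taken. CXCL10, a chemokine of the interferon response, was nearest with a distance of 0.25. It was followed by GBP2 with 0.27, and, among the 5 nearest, by GBP1 with 0.38 and by PDCD1LG2, another ligand of PD-1, with 0.38. CD274 ranked 9 in this order, IRF1 88 and ICAM1 255.

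Receptor and signalling genes of the interferon gamma pathway were read next. Of 19 listed genes 11 were measured, 11 were higher and 0 lower on KO, and 10 had KO above every WT array, against 54.7% higher and 38.1% above every WT array among the 2742 named genes. None of these 11 genes passed the limma threshold over all probes, a count of 0, and 4 met the unadjusted limma rule (p under 0.05 and 2-fold, either direction), against 12.7% of named genes. The median difference was 1.21, against 0.077 over all named genes, and within slide 1 it was 1.23.

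The receptor chains differed from each other in size. IFNGR2, the signalling chain, was 2.44, 1.48 and 1.87 on the WT arrays and 3.76 on KO, a difference of 1.83. IFNGR1, the ligand-binding chain, was 2.71, 2.64 and 2.61 and 3.49 on KO, a difference of 0.84, and its 4 probes gave between 0.84 and 1.26. Neither chain passed limma (adjusted p = 0.410 and 0.430). The kinase JAK2 differed by 1.21 and JAK1 by 0.57. SOCS3, a feedback inhibitor of JAK kinases, differed by 1.32 and varied little among WT spleens, with an SD of 0.035. IRF7, a transcription factor of antiviral responses, differed by 2.24, whereas IRF3, its constitutive relative, differed by 0.02 and lay within the WT range.

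Genes of cytokines that raise or restrain interferon gamma, and of receptors and signalling proteins for such cytokines, were measured for 12 of 16 listed. Of the 12, 9 were higher and 3 lower on KO, against 54.7% of named genes higher. KO was above every WT array for 8 of the 12 and below every WT array for 2, against 38.1% of named genes above every WT array. No gene of this list passed limma, a count of 0, and 7 met the unadjusted rule, against 12.7% of named genes. The median difference was 1.44, and within slide 1 it was 0.91. The macrophage and dendritic cell cytokines IL27, IL15, IL12B and IL18 were higher by 2.92, 2.74, 2.46 and 1.95, with WT SDs of 0.57, 0.41, 0.68 and 0.39. IL15 sustains NK cells, and IL12B and IL18 encode inducers of IFNG. IL12A, which encodes the partner chain of IL12B, differed by -0.03 and lay within the WT range. IL10 and TGFB1, which encode inhibitory cytokines, were higher by 1.51 and 1.37.

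Receptor and signalling genes of lymphocytes on this list, read with the cytokine gene IL21, differed in direction. IL12RB2, the chain of the interleukin 12 receptor that is found on activated T and NK cells, was well above background on all 3 WT arrays and not on KO, where its signal was at least 4.85-fold lower than in WT (limma, adjusted p = 0.342). Each bound was set by the dimmest spot counted as above background on the array, or by the probe itself where it was brighter. STAT4, which relays interleukin 12 signals, differed by -1.07, and its KO value of -0.70 was below the WT values of 0.52, 0.66 and -0.07. IL12RB1 differed by 0.79 and lay within the WT range, and within slide 1 it was lower on KO by a log2 difference of -0.25. IL18R1, a chain of the interleukin 18 receptor, differed by 0.75 and was above every WT array on KO. IL21 was well above background on KO alone, with a signal at least 1.98-fold higher than the WT mean. The limma adjusted p of STAT4 was 0.458, that of IL12RB1 0.713, that of IL18R1 0.508 and that of IL21 0.572.

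Other response genes of interferon gamma were measured for 17 of 25 listed genes. All 17 were higher on KO, 16 had KO above every WT array, and 12 met the unadjusted rule, against 54.7%, 38.1% and 12.7% of named genes. None passed over all probes, a count of 0. The median difference was 1.69, and within slide 1 it was 1.36. The largest differences were those of the chemokine genes CXCL9 and CXCL11, at 5.44 and 5.33, and CXCL10, at 4.21. UBD, which encodes a ubiquitin-like modifier, differed by 3.86, and PDCD1LG2 by 3.43 with the same order of arrays as CD274. The members GBP1, GBP2 and CD274 thus differed less than the chemokine genes and more than TAP1, a peptide transporter gene, at 2.56. B2M and SLC11A1 were at the lower end with 0.80 and 0.66. NOS2, which encodes the inducible nitric oxide synthase, lay within the WT range, its 5 probes gave differences from -1.01 to 1.29, and its brightest probe was lower on KO within slide 1, at -0.37.

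**Figure D4:**
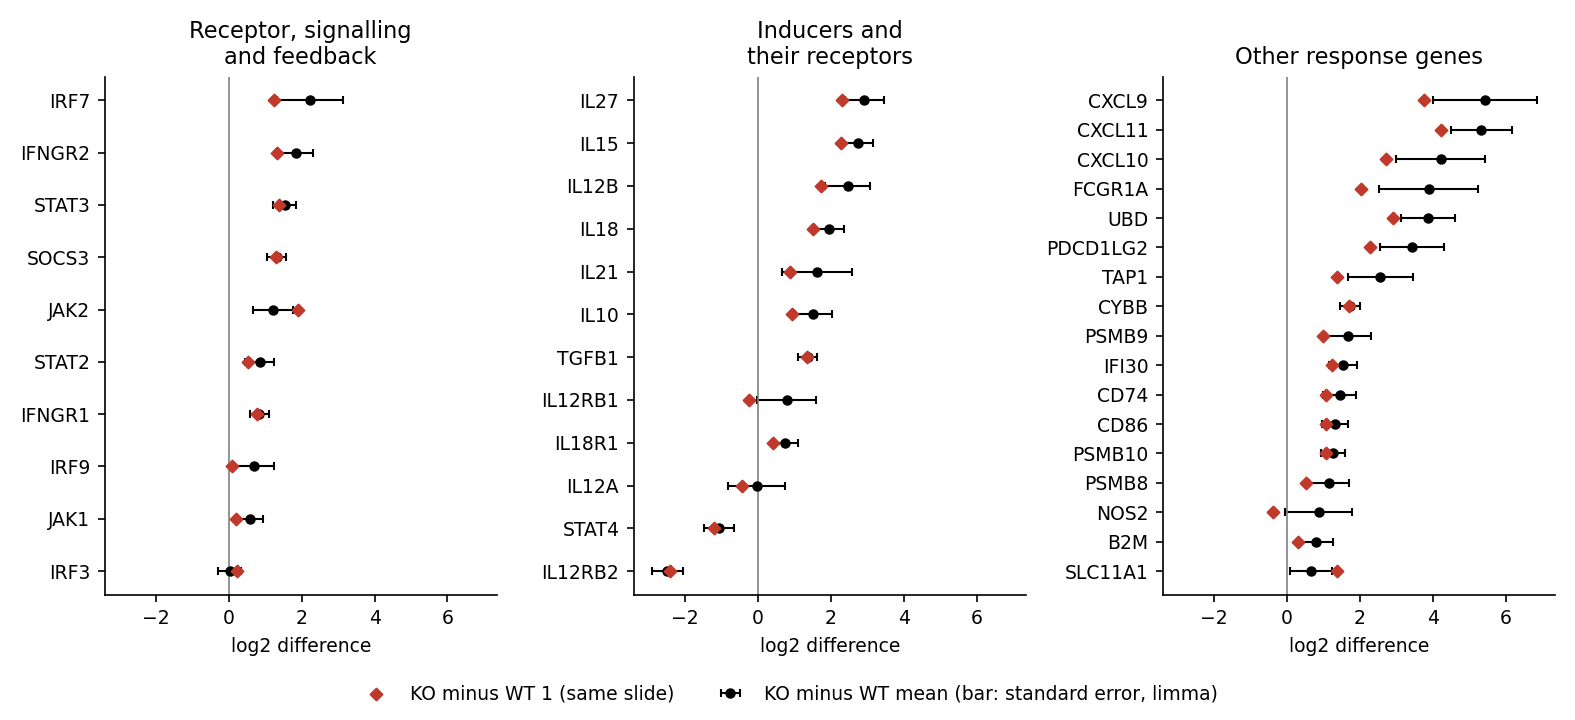
KO minus the WT mean with its limma standard error (black) and KO minus WT 1 on the same slide (red), both as log2 differences (horizontal axes), for measured genes of 3 lists around interferon gamma. Most points lie to the right of 0, with CXCL9 at 5.44, and IL12RB2 lies furthest to the left at -2.49. The KO signal of IL12RB2 and the WT signals of IL21 were not well above background. Their points show the plain differences, and the bounds are given in the text.

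Markers of cell types that make or answer interferon gamma were read on the same arrays, and their part in the member differences was not tested. No marker gene passed limma over all probes, a count of 0 in each list. The T cell list had 7 of 12 genes measured and a median of 0.07, which became -0.27 within slide 1. It had 4 genes higher and 3 lower on KO, against 54.7% of named genes higher. Its summed signal, in units of the 75th percentile, was 30.7 on KO and between 23.2 and 72.4 on the WT arrays. CD8A and CD4 differed by 1.78 and 1.73, and CD247, a signalling chain of the T cell receptor, by -1.23. Among the T cell genes, 1 met the unadjusted rule, CD4, against 12.7% of named genes.

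NK and cytotoxic genes were measured for 8 of 14, with 6 higher and 2 lower, against 54.7% of named genes higher. KO was above every WT array for 5 of the 8 and below every WT array for 1, against 38.1% of named genes above every WT array. The 8 genes had a median of 1.1, or 0.20 within slide 1. Their summed signal was 279 on KO and between 74.8 and 164 on the WT arrays, and FCGR3A and TYROBP, which macrophages also express, held 167 and 76.7 of the 279. The other 6 genes summed to 34.7 on KO and to 40.8, 24.7 and 9.02 on WT 1, WT 2 and WT 3, so this sum on KO lay within the WT range. It leaned on KLRK1, the brightest of these 6 on each WT array, which was 4.55, 4.17 and 2.11 there and 3.28 on KO. GZMK, a granzyme gene, was 0.96, -0.56 and -2.93 on the WT arrays and 3.13 on KO, a difference of 3.97. GZMA was -1.40, -4.04 and -6.48 and -1.34 on KO, so that KO and WT 1 hardly differed. NCR1, a defining NK receptor gene, was -1.52, -1.77 and -2.78 on the WT arrays and lower on KO at -3.18. Of the 8 genes, 0 met the unadjusted rule, against 12.7% of named genes.

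Macrophage genes were measured for 11 of 16, and 11 were higher on KO, 10 with KO above every WT array, against 54.7% and 38.1% of named genes. The median was 1.45, or 0.78 within slide 1, and 6 genes met the unadjusted rule, against 12.7%. The summed signal was 1233 on KO and between 523 and 784 on the WT arrays. FCGR1A, an interferon-responsive Fc receptor gene, differed by 3.89, MRC1 by 3.25 and CD163 by 3.17. CD163 exceeded WT 1 by 4.02, more than any member did.

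B cell genes were measured for 4 of 10, with 1 higher and 3 lower on KO, against 54.7% of named genes higher. The 3 lower genes lay below every WT array, and all 3 met the unadjusted rule, against 12.7% of named genes. MS4A1 and CD79A, which encode B cell surface proteins, were lower on KO by log2 differences of -4.92 and -4.12, yet both stayed above background, and CD72 was higher by 1.49. The summed signal of the list was 5.25 on KO, of which CD72 held 5.08, and between 4.07 and 8.60 on the WT arrays. Without CD72 and CD79A, the brightest on KO, the other 2 genes summed to 0.10 on KO. On WT 1, WT 2 and WT 3 they summed to 3.69, 1.85 and 3.16. Of 10 endothelial genes 4 were measured, with 0 higher and 4 lower, against 54.7% of named genes higher. Among these 4 genes, 1 met the unadjusted rule, against 12.7% of named genes. Their median was -1.03, or -0.76 within slide 1. Their summed signal was 8.90 on KO, of which PECAM1 and CDH5 held 4.94 and 2.05, and between 12.9 and 35.3 on the WT arrays. Without PECAM1 and CDH5 the sum was 1.92 on KO and 5.08, 8.69 and 24.1 on WT 1, WT 2 and WT 3. Endothelium also expresses ICAM1, and its part in the ICAM1 difference was not tested. VWF, CLDN5 and CDH5 differed by -2.76, -1.09 and -0.97. PECAM1, counted as lower, differed by only -0.007 and lay within the WT range, and its 3 probes gave between -0.007 and 0.41.

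**Figure D5:**
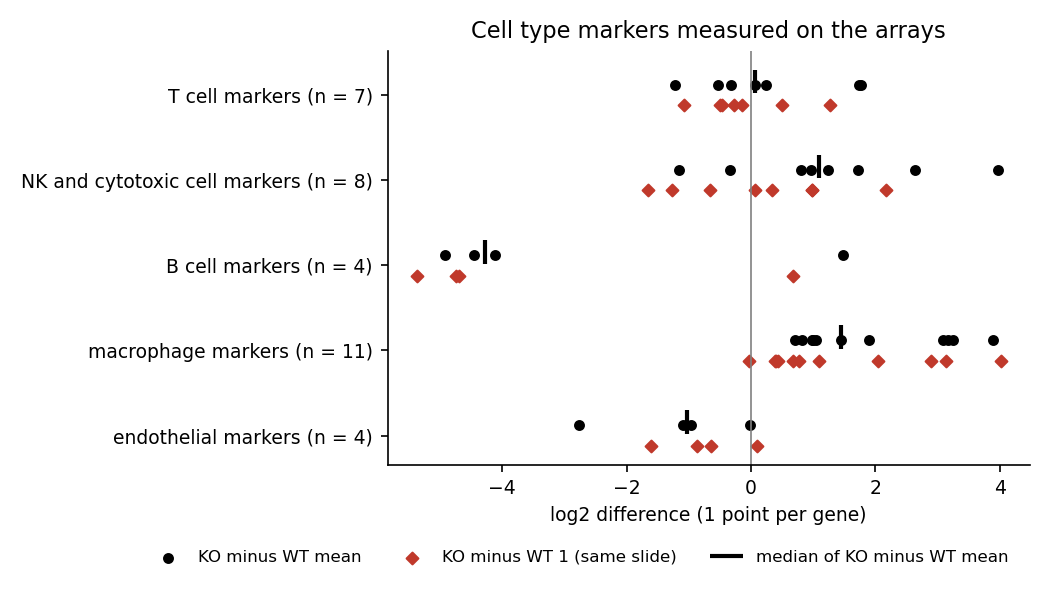
KO minus the WT mean (black) and KO minus WT 1 on the same slide (red), as log2 differences (horizontal axis), with 1 point per measured marker gene and a vertical bar at the median, for 5 cell type lists. Macrophage genes lie to the right of 0 (median 1.45), 3 of 4 B cell genes far to the left, and T cell genes on both sides (median 0.07).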

How the data were processed

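Spleen RNA of 3 WT pigs and 1 KO pig was measured on 4 one-colour Cy3 arrays, per the labels; the methods describe a dye pair, while the file headers list 1 channel. Per the file headers, the authors used Agilent Feature Extraction 11.0.1.1, and the deposited intensity is its background-corrected processed signal, without scaling between arrays. The series table they deposited holds log2 values normalised by the authors and served only as an alternative.

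Probes with flagged outlier spots were left out (28). The log2 processed signal was shifted by the 75th percentile of each array, and spots of a probe were averaged. Probes well above background on at least 1 array were tested (33464 of 43575). No spot was saturated (0). Accessions were matched to RefSeq transcripts of Sscrofa11.1, which named 6686 of 43603 probes (15.3%); other probes stayed unnamed and genes without a named probe were not analysed here. The brightest probe stood for a gene. Probe sequences and coordinates are not given here.

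Differences between KO and WT were tested two-sided with limma 3.58.1 (R 4.3.3; eBayes after lmFit, Benjamini-Hochberg over all probes tested), with a threshold of adjusted p 0.05 and 2-fold. The fit had 2 residual and 1.93 prior degrees of freedom, all from WT, and KO, with 1 array, was taken to vary as WT did. The number of arrays limits the precision. The fit was tested on simulated data. Figures were drawn with matplotlib 3.10.9.

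Alternatives were normexp (offset 50, on median signals), quantile normalisation, a median shift, other filters, the slide as a block, a variance trend, the methods' t-test and leaving out each WT array. Lists were described by counts and medians, with no set test. The genes named were every member and, in each list, at least the 3 with the largest absolute difference; the 5 nearest to IFNG were chosen by distance. Some genes that these rules name are not reported here, though counts and medians of the lists include them. The members and lists were chosen with earlier results of these data known.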

Additional observations from a re-analysis of the deposited data

How the results depend on the processing

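All 10 member probes kept a positive difference under every setting run, and none passed the adjusted limma threshold in any of them. The sizes of the dim members depended on background correction. Under normexp IFNG differed by 2.71 and CD274 by 2.38, against 3.65 and 3.12 with the settings of the report. The brightest probes of GBP1 and GBP2 gave 3.11 and 3.06 under normexp, so IFNG no longer had the largest difference. With the slide as a block, which equals KO minus WT 1, IFNG differed by 2.19, GBP1 by 1.81 and GBP2 by 1.72 (brightest probes), each over 1.5 times smaller than the difference from the WT mean on that probe. The order KO, WT 1, WT 2, WT 3 was held by 10 member probes under all scalings tried and by 9 on the unscaled processed signal, where ICAM1 was the exception. This check of order, the counts at an unadjusted p, the Bonferroni correction and the list sums without their brightest pair of genes were added after the data had been seen.

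The count of 10 member probes at an unadjusted limma p under 0.05 and 2-fold rested on the design. It was 6 with the slide as a block (all of IRF1, CD274 and ICAM1, and 1 probe each of GBP1 and GBP2; 5.74% of all probes), and 1 with the methods' t-test, unadjusted (1.93%). Leaving out 1 WT array gave between 2 and 10. The 2 were found without WT 2, for IRF1 and CD274 (2.13%), with 1 residual degree of freedom fewer than before. A single GBP2 probe missed it under quantile normalisation, with the 75th percentile over probes detected on all arrays, and without WT 3. The causes were not tested.

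Over all probes, the adjusted threshold was passed by 0 with the settings of the report, by 4 under normexp and by 6 with eBayes and a trend, none of them a member. Without adjustment, 1333 probes passed the methods' t-test, among them 1 member probe (ICAM1, difference 1.35) and 16 genes of the lists, and 0 passed it with a Bonferroni correction. The median of the T cell list changed sign in 5 of 15 settings, and no other list median did. No paired analysis was possible with 1 KO array, whose label carries no replicate number. Signals near background, as for IFNG on WT 3, limit the precision of the dim members.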

Other observations

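A list around CD274 and ICAM1 held genes of binding partners and of related ligands and adhesion molecules. Of its 11 genes 9 were measured, with 8 higher and 1 lower on KO, against 54.7% of named genes higher. KO was above every WT array for 8 of the 9, against 38.1% of named genes. The median difference was 1.06, or 0.87 within slide 1. None passed limma over all probes, a count of 0, and 5 met the unadjusted limma rule of the report, against 12.7% of named genes. ITGAL, the alpha chain of the integrin that binds ICAM1, was 1.28, 0.94 and 0.003 on WT 1, WT 2 and WT 3 and 2.76 on KO, a difference of 2.02. ITGB2, its beta chain, was 5.73, 5.64 and 5.18 and 6.43 on KO, a difference of 0.91. The integrin chains thus shared with ICAM1 the highest value on KO.

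Among adhesion molecules of the same kind, ICAM2 differed by 1.84, ICAM3 by 0.56 and VCAM1, an endothelial and stromal ligand, by 0.38. SELE, which encodes the selectin of activated endothelium, exceeded background clearly on KO and on just 1 of the WT arrays, so its fold is left out. SELP, found in platelets and endothelium, was -1.89, 1.94 and 4.42 on the WT arrays and -1.02 on KO, within a WT range far wider than that of ICAM1. CD80, a costimulatory ligand that CD274 also binds, differed by 1.06 with a WT SD of 0.25. FCGR1A, PDCD1LG2 and CD80 each stood on more than 1 of the lists used here.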
